A study of Mus musculus with 4 samples.

Results

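The 8 genes described here are Egr1, Egr2, Egr3, Klf4, Irf4, Bhlhe40 and Myc, which encode transcription factors, and Kdm6b, which encodes a histone demethylase. They were chosen by name, with earlier results of these data known, as genes that IL-4 is known to induce in macrophages. They are 8 of the 21887 protein-coding genes of the annotation. Accessibility around them was measured by ATAC-seq, an assay that reads out where the transposase Tn5 can reach the DNA and insert adapters. The libraries came from macrophages grown from bone marrow of C57BL/6 mice for 5 days with 10% M-CSF, the growth factor that drives macrophage differentiation, and each used 50000 cells. KO IL-4 macrophages were Slc6a8-/y, without the X-linked creatine transporter gene, and received IL-4 at 10 ng/mL for 6 h. KO untreated macrophages were Slc6a8-/y and received no IL-4. WT IL-4 macrophages were wild type with the same IL-4 treatment, and WT untreated macrophages were wild type without it. The labels do not say how many mice gave each library, the sex of the WT mice, or how the Slc6a8 allele was made. Each group held 1 library, so no difference could be set against replicate error, no p-value was computed, and every comparison is between 4 libraries rather than between conditions.

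IL-4 binds a receptor whose JAK kinases phosphorylate STAT6, and STAT6 then enters the nucleus and binds DNA at genes of alternative activation. Some of its early targets are themselves regulators. EGR2 and KLF4 act with or after STAT6 in mouse macrophages, IRF4 is needed for parts of the alternative programme, and KDM6B removes the repressive methyl marks that Polycomb complexes leave on histone H3 and has been placed upstream of IRF4. BHLHE40 and MYC are linked to macrophage proliferation and metabolism, and EGR1 is the prototype of the immediate early zinc-finger factors.

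The peak lists differed in length, which bears on every presence and absence below. KO IL-4 had 10443 peaks, KO untreated 13714, WT IL-4 9930 and WT untreated 17339. Each peak has a deposited score, used here to rank peaks within their own list as a percentile, where 100 is the highest score. The score is the authors' value, and scores or percentiles of different lists are not compared as amounts. The depth of sequencing is unknown, so a missing peak may lie below a calling threshold that moves with depth. No list had a peak at Slc6a8 or within 10 kb of it, so the deleted gene gave no check of the labels. Of 10 macrophage marker genes, 6 had a peak within 10 kb in KO IL-4, 8 in KO untreated, 8 in WT IL-4 and 10 in WT untreated. Of 24 markers of other cell types, 6, 6, 5 and 8 had one in that order, and the 3 fibroblast and 3 mast cell markers had none in any list. Over all protein-coding genes the shares were 44.1%, 51.6%, 43.3% and 56.0% in the same order. The markers Flt3, Zbtb46 and Xcr1 of dendritic cells all had one in KO IL-4, KO untreated and WT untreated, and 2 of them in WT IL-4. The part of other cells in the results was not tested.

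Promoter sequences from RefSeq (GRCm38.p6, the coordinates of mm10) were available for 3 of the 8 genes, and the 250 bases before 1 annotated start of each are shown because the peak lists treat these 3 starts differently. The Klf4 stretch lay wholly inside a peak in all 4 lists. The Egr2 stretch lay wholly inside a peak in KO IL-4, WT IL-4 and WT untreated and outside every peak in KO untreated. The Irf4 stretch lay outside every peak in all 4 lists. Capitals mark bases that match a searched motif.
Egr2 before the start at 67537869 (chr10:67537619-67537868, plus strand): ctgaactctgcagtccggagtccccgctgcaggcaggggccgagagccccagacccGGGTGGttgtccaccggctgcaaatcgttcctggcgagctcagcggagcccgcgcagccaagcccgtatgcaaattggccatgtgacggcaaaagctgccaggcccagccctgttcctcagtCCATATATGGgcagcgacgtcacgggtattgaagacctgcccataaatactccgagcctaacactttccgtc
Klf4 before the start at 55532475 (chr4:55532476-55532725, minus strand): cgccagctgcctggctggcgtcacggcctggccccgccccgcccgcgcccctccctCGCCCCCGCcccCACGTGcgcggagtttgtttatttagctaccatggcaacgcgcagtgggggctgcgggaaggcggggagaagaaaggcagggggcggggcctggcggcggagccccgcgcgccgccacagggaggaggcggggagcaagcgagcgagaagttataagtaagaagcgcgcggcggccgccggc
Irf4 before the start at 30749233 (chr13:30748983-30749232, plus strand): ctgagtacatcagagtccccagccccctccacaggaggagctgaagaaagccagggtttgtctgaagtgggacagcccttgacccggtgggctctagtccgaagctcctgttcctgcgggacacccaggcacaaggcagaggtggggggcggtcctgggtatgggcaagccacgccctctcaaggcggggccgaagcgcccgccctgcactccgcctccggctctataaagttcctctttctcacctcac

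Exact matches were searched on both strands of the 300-base promoter windows, which run from 250 bases before a start to 50 after it. The motifs were the STAT6 site (TTC and GAA separated by any 4 bases), the STAT site TTCNNNGAA, the EGR sites GCGTGGGCG and GCGGGGGCG, the E-box CACGTG, the AP-1 site TGANTCA, the cyclic AMP response element TGACGTCA, the KLF box CCACCC and the CArG box of serum response factor. The Egr2 window shown held a CArG box, found in 1.63% of the 32851 promoter windows, and a KLF box, found in 31.5%. The Klf4 window held an EGR site of the form GCGGGGGCG, on the strand opposite to the one printed and found in 2.91% of windows, and an E-box, found in 7.15%. The Irf4 window held none of the motifs, and the STAT6 site, found in 6.95% of windows, was in none of the 3 windows shown. In the 3 stretches no match overlaps another. The GC content of the windows was 60.0% at Egr2, 74.3% at Klf4 and 61.0% at Irf4, against a median of 52.7% over all windows. Egr2 has 5 annotated starts in the table. The 250 bases before the start at 67535499 lay outside every peak of the 4 lists, and those before the start at 67537566 held another CArG box.

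**Figure D1:**
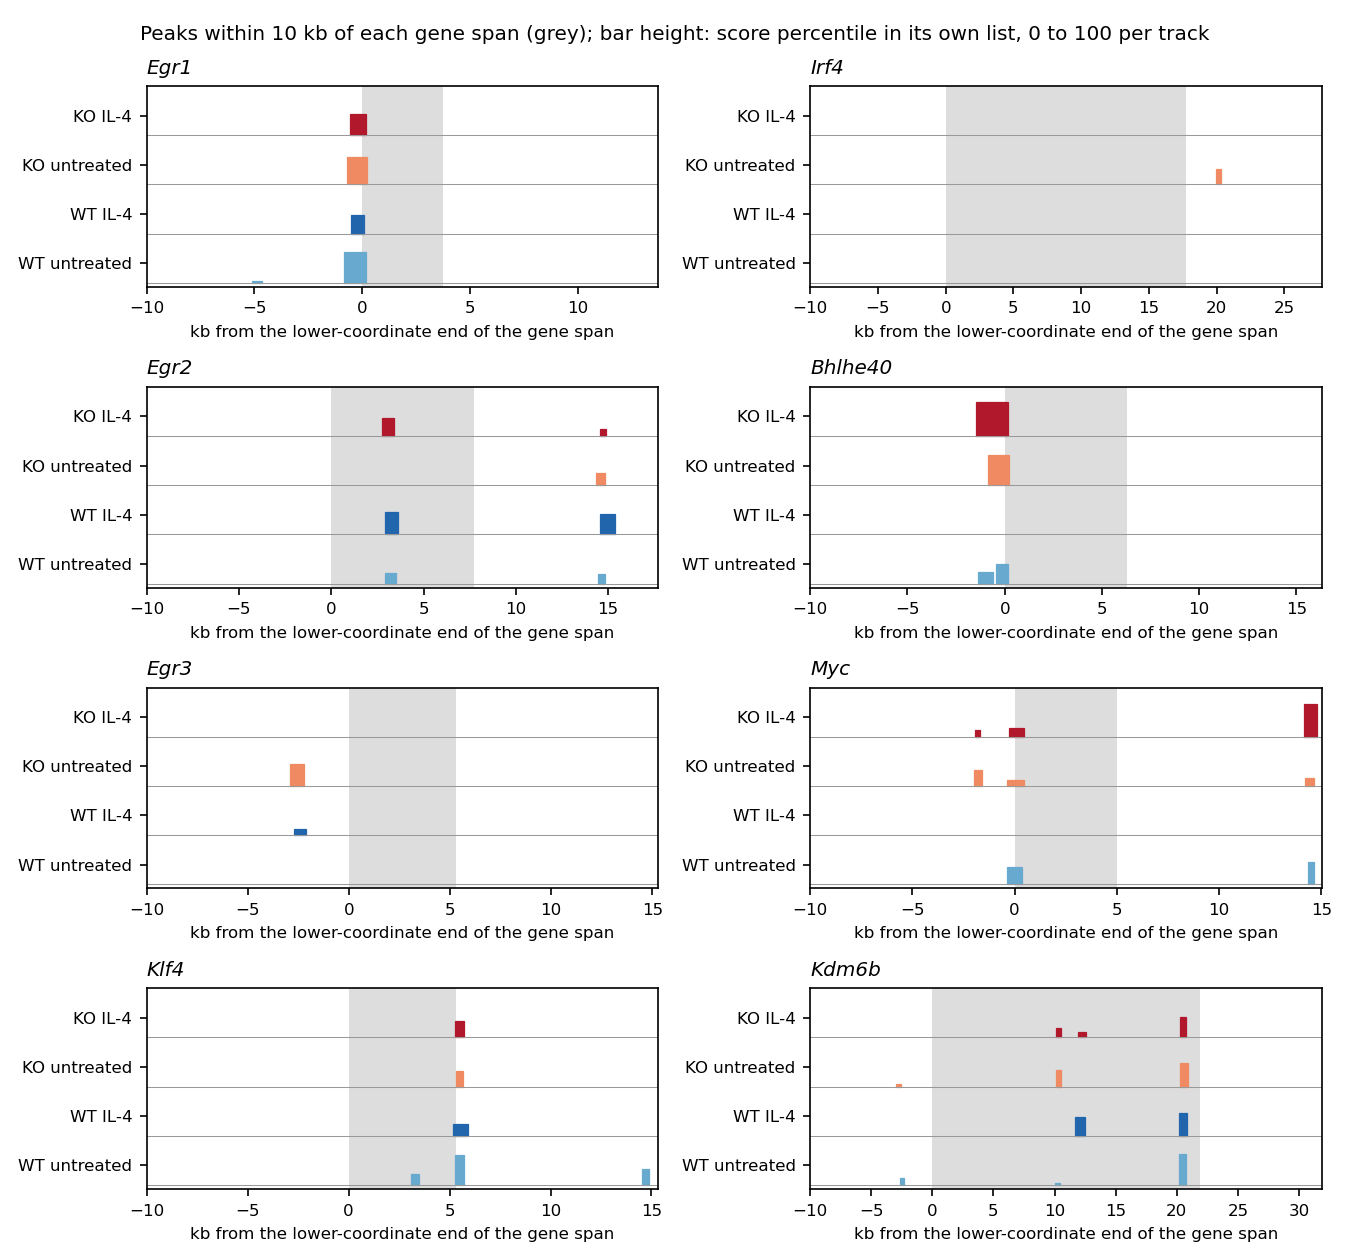
Peaks within 10 kb of each gene in the 4 libraries. Outlines make the lowest bars visible. The x axis is the distance in kb from the lower-coordinate end of the gene span (grey), each track is a library, and bar height is the percentile of the peak's score in its own list. Bhlhe40 and Myc have no bar in the WT IL-4 track, and Irf4 has a single bar, in KO untreated.

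A peak was assigned to a gene when it reached into the gene span or into the 10 kb flanking it on either side. All 8 genes had such a peak in at least 1 list. A peak was present at 6 of 8 genes in KO IL-4, where 44.1% of all protein-coding genes had one, and at 8 of 8 in KO untreated (51.6% of all genes). It was present at 5 of 8 in WT IL-4 (43.3%) and at 6 of 8 in WT untreated (56.0%). Together the 8 genes had 11 in KO IL-4, 12 in KO untreated, 7 in WT IL-4 and 14 in WT untreated. The 44 peaks merged into 17 regions, of which 9 touched a gene span and 8 lay in the flanks. Of the 17 regions, 4 were found in all 4 lists, at Egr1, Egr2, Klf4 and Kdm6b. Over the whole series 32.5% of 20540 merged regions were found in all 4. Another 4 of the 17 regions, 1 at Bhlhe40, 2 at Myc and 1 at Kdm6b, were found in every list but WT IL-4, a pattern of 7.24% of all regions. The 7 WT IL-4 peaks lay in 7 of the 17 regions, and the other regions had none. Over the whole series 51.9% of merged regions had no WT IL-4 peak. The genes' peaks were of moderate rank, with median percentiles of 40.9 in KO IL-4, 40.2 in KO untreated, 49.0 in WT IL-4 and 34.8 in WT untreated. In WT IL-4, where the median score of the whole list was 85.46, none of the 7 scored 100 or more. The median number of peaks per gene was 1 in KO IL-4, 1 in KO untreated, 1 in WT IL-4 and 2 in WT untreated for the 8 genes, and 0, 1, 0 and 1 over all genes in that order. The median extended span was 25818 bp for the 8 genes and 37169 bp for all.

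**Figure D2:**
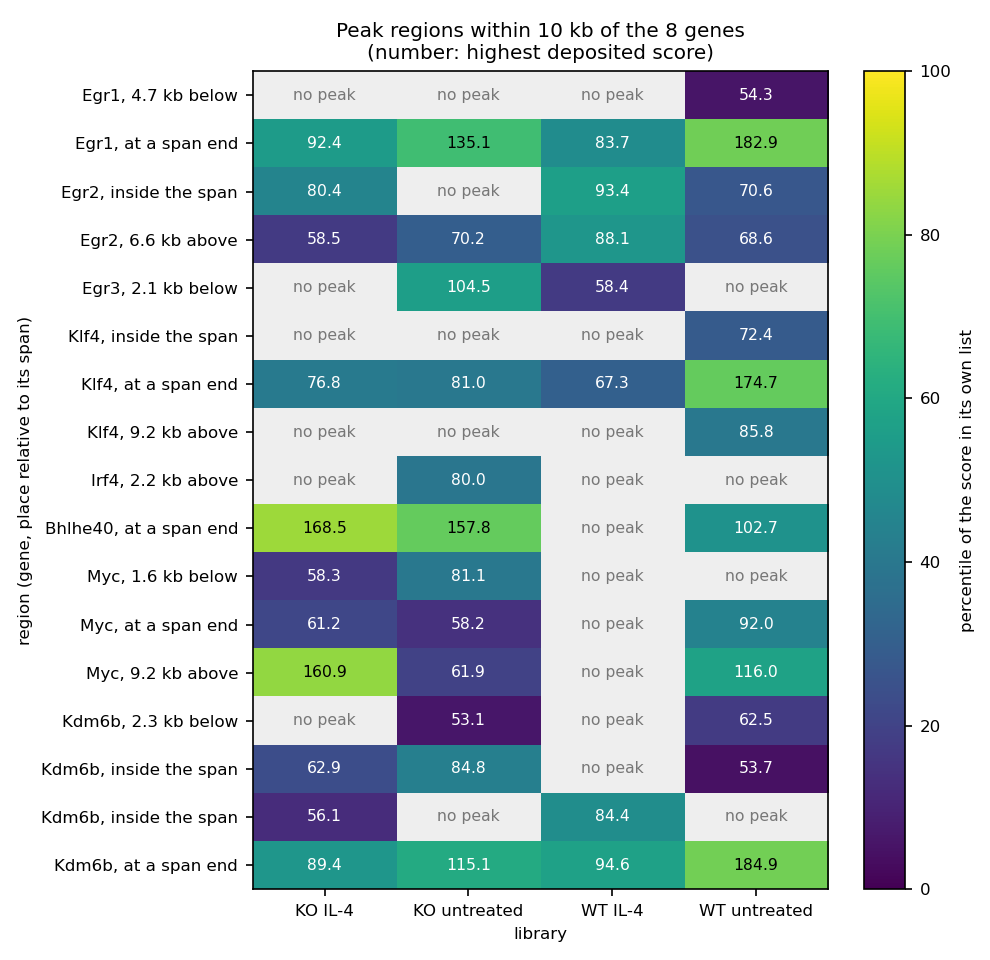
The 17 peak regions within 10 kb of the 8 genes (rows) in the 4 libraries (columns). Numbers are the highest deposited score in the region, colour is its percentile in its own list, and below and above mean toward lower and higher coordinates. The 4 regions found in every column lie at Egr1, Egr2, Klf4 and Kdm6b, and the highest percentile, 85.5, is that of Bhlhe40 in KO IL-4.

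The EGR genes encode 3 related zinc-finger factors of the immediate early type, and each had a different pattern. At Egr1 (chromosome 18, 34861207 to 34864956) a peak over the lower end of the span was found in every list. Its score was 92.4 in KO IL-4, 135 in KO untreated, 83.7 in WT IL-4 and 183 in WT untreated. It held percentiles 54.9, 69.3, 48.5 and 78.3 of those lists, so it was a mid- to upper-range peak throughout. WT untreated alone had a second Egr1 peak, 4666 bp below the span (score 54.3, percentile 5.6), among the weakest peaks of its list.

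Egr2 (chromosome 10, 67534469 to 67542188) was the EGR gene whose start differed between lists. The peak inside the span (67537217 to 67538065), which holds the sequence shown above, scored 80.4 in KO IL-4, 93.4 in WT IL-4 and 70.6 in WT untreated, and KO untreated had no peak there. These were percentiles 45.0, 56.5 and 27.1. Of KO IL-4 peaks in the same score decile, 84.4% overlapped a KO untreated peak. Of WT untreated peaks in the decile of its Egr2 peak, 43.2% did. A second Egr2 region, 6638 bp above the span, was found in all 4 lists with scores of 58.5 in KO IL-4, 70.2 in KO untreated, 88.1 in WT IL-4 and 68.6 in WT untreated. This second region reached into the neighbouring gene Ado, at its edge, so its assignment to Egr2 rests on distance alone.

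At Egr3 (chromosome 14, 70077317 to 70082613) the span itself held no peak in any list. One region, 2112 bp below it, scored 104.5 in KO untreated and 58.4 in WT IL-4, and KO IL-4 and WT untreated had no peak there. IL-4 therefore came with a lost peak in KO and a gained one in WT. A difference between the genotypes was not tested, and 1.01% of all merged regions had the same pattern. Of KO untreated peaks in the same score decile, 94.0% overlapped a peak of WT untreated and 68.1% one of KO IL-4. For the weaker WT IL-4 peak (percentile 16.8) these shares were 73.3% in WT untreated and 45.6% in KO IL-4.

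Klf4 (chromosome 4, 55527137 to 55532475) encodes a Krüppel-like factor. Its annotated start lay in a peak of every list, with scores of 76.8 in KO IL-4, 81.0 in KO untreated, 67.3 in WT IL-4 and 175 in WT untreated. In percentiles the peak stood at 40.9, 40.1, 30.8 and 76.5, below the list median in KO IL-4, KO untreated and WT IL-4 and above it in WT untreated. WT untreated alone also had a peak inside the span (score 72.4) and one 9197 bp above it (85.8). Of WT untreated peaks in the same score deciles, 43.2% and 63.1% overlapped a KO untreated peak, and 25.0% and 37.9% a WT IL-4 peak.

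Irf4 (chromosome 13, 30749233 to 30766981) encodes an interferon regulatory factor and had the fewest peaks of the 8 genes. Neither its annotated start nor any part of its span was in a peak of any list. KO untreated alone had a peak, 2219 bp above the span, with a score of 80.0 (percentile 39.3). Peaks of that decile of the KO untreated list overlapped a WT untreated peak in 79.6% of cases and a KO IL-4 peak in 43.2%.

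Bhlhe40 (chromosome 6, 108660629 to 108666925) encodes a basic helix-loop-helix repressor. A region over the lower end of its span (108659154 to 108660847) was found in every list but WT IL-4. KO IL-4 had 1 peak of 1619 bp with a score of 169, and KO untreated had 1 of 1082 bp with a score of 158. WT untreated had 2 peaks there, scoring 72.9 and 102.7, and both were overlapped by the KO peaks. The WT IL-4 peak nearest to Bhlhe40 lay 89081 bp away. The KO IL-4 peak was at percentile 85.5, and of the 1044 KO IL-4 peaks in that score decile 98.4% overlapped a WT IL-4 peak and 17 did not.

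Myc (chromosome 15, 61985341 to 61990361) encodes a proliferation-promoting basic helix-loop-helix factor and likewise had no WT IL-4 peak within 10 kb. The lower end of its span was in a peak of score 61.2 in KO IL-4, 58.2 in KO untreated and 92.0 in WT untreated. A region 9155 bp above the span scored 161 in KO IL-4, 61.9 in KO untreated and 116 in WT untreated. The KO IL-4 peak of this region, at percentile 83.9, fell in the same decile as that of Bhlhe40 and was another of the 17 peaks there without a WT IL-4 counterpart. A region 1593 bp below the span was found in the KO lists alone, scoring 58.3 in KO IL-4 against 81.1 in KO untreated. The nearest WT IL-4 peak lay 88882 bp above Myc, with a score of 101, and no other list had a peak at that place.

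Kdm6b (chromosome 11, 69398508 to 69420367) had the most peaks of the 8 genes, in 4 regions. Its extended span was also the longest of the 8, 41860 bp against a median of 25818 bp. The region nearest the upper end of the span (69418654 to 69419386) was found in all 4 lists and scored 89.4 in KO IL-4, 115 in KO untreated, 94.6 in WT IL-4 and 185 in WT untreated. Inside the span, a region at 69410145 to 69411059 scored 56.1 in KO IL-4 and 84.4 in WT IL-4, and neither untreated list had a peak there. This was the only region of the 17 found in both IL-4 lists and in neither untreated list, a pattern of 0.618% of all merged regions. Peaks of the same decile of the WT IL-4 list overlapped a WT untreated peak in 92.8% of cases, and 71 of 993 did not. For the weaker KO IL-4 peak (percentile 12.7) the share with a KO untreated counterpart was 59.1%. A neighbouring region at 69408561 to 69409059 had the other pattern, with 62.9 in KO IL-4, 84.8 in KO untreated and 53.7 in WT untreated and no peak in WT IL-4. The last region, 2343 bp below the span, was found in KO untreated (53.1) and WT untreated (62.5), and it overlapped the neighbouring genes Cyb5d1 and Naa38.

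Some calls rested on the distance limit. Just inside 10 kb lay the Myc region at 9155 bp and the Klf4 region at 9197 bp. Just outside lay an Irf4 peak of WT untreated 10421 bp below the span (score 57.0) and an Egr3 region 10799 bp below the span that was found in all 4 lists. A limit that took these in would give Egr3 a peak in every list and Irf4 one in WT untreated as well.

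The comparisons ask how accessibility at these genes differed with IL-4 in each genotype and with loss of Slc6a8 under each treatment. A peak with no overlap of at least 1 bp in the second list is called gained, and a second-list peak with none in the first is called lost. WT IL-4 against WT untreated gave a gained peak at 2 of the 8 genes, Egr3 and Kdm6b, where 4.41% of all protein-coding genes had one. Lost peaks lay at 5 of 8, Egr1, Klf4, Bhlhe40, Myc and Kdm6b, against 29.5% of all genes. The 2 gained peaks scored 58.4 and 84.4, and the 9 lost peaks 53.7 to 116. Counted by peak over the whole lists, 10.3% of WT IL-4 peaks were gained and 47.7% of WT untreated peaks lost. At the 8 genes these were 2 of 7 and 9 of 14. In the deciles of the WT untreated list that held the 9 lost peaks, 16.1% to 52.4% of peaks had a WT IL-4 counterpart. When every list was limited to its 9930 best-scoring peaks, 4 peaks were gained and 3 lost. WT IL-4 has 9930 peaks, so only WT untreated was cut, and gains could only rise or stay and losses only fall or stay. No share over all genes is given at equal list lengths, here or below. The gained ones were then 2 at Egr2, 1 at Egr3 and 1 at Kdm6b, and the lost ones 1 at Bhlhe40 and 2 at Myc. The losses at Egr1, Klf4 and Kdm6b ended.

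KO IL-4 against KO untreated gave gained peaks at Egr2 and Kdm6b, 2 of 8, where the share over all genes was 7.95%. Lost peaks lay at Egr3, Irf4 and Kdm6b, 3 of 8, against 21.4% of all genes. The 3 lost peaks scored 53.1 to 104.5. Counted by peak over the whole lists, 18.1% of KO IL-4 peaks were gained and 37.7% of KO untreated peaks lost. At the 8 genes these were 2 of 11 and 3 of 12. Bhlhe40, Myc, Klf4 and Egr1 had the same regions occupied in both KO lists. At equal list lengths 4 peaks were gained, 1 at Egr2, 1 at Kdm6b and 2 at Myc, whose KO untreated peaks of 58.2 and 61.9 fell below the lowest score kept, 67.78. The lost peaks were then 1 at Egr3 and 1 at Irf4, and the loss at Kdm6b ended. KO IL-4 kept all 11 of its peaks at the 8 genes. Gains there could thus only rise or stay and losses only fall or stay. The difference between the genotypes in the response to IL-4 was not tested, since it would need replicates.

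KO untreated against WT untreated gave gained peaks at Egr3, Irf4 and Myc, 3 of 8, against 9.27% of all genes. Lost peaks lay at Egr1, Egr2 and Klf4, 3 of 8, against 20.7%. The 3 gained peaks scored 80.0 to 104.5 and the 4 lost ones 54.3 to 85.8. Counted by peak over the whole lists, 15.4% of KO untreated peaks were gained and 32.1% of WT untreated peaks lost. At the 8 genes these were 3 of 12 and 4 of 14. At equal list lengths 5 were gained, 1 each at Egr2, Egr3, Irf4, Myc and Kdm6b, and 2 lost, both at Myc. The losses at Egr1, Egr2 and Klf4 ended, and Egr2 counted as gained instead. In the full lists both untreated libraries had overlapping peaks at the span ends of Egr1, Klf4, Bhlhe40, Myc and Kdm6b.

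KO IL-4 against WT IL-4 gave gained peaks at Bhlhe40, Myc and Kdm6b, 3 of 8, against 13.9% of all genes. A lost peak lay at Egr3, 1 of 8, against 12.0%, which is close to the share of all genes. The 5 gained peaks scored 58.3 to 169, and 3 of them were at Myc. Of these 5, 2 Myc peaks were at percentiles 16.6 and 21.1 and the Kdm6b peak at 23.8. In their deciles 40.7% or 48.7% of KO IL-4 peaks had a WT IL-4 counterpart. Counted by peak over the whole lists, 29.5% of KO IL-4 peaks were gained and 26.1% of WT IL-4 peaks lost. At the 8 genes these were 5 of 11 and 1 of 7. At equal list lengths WT IL-4 kept its whole list and KO IL-4 kept all 11 peaks at the 8 genes, so the gained and lost counts could not change. The 4 comparisons share libraries: WT IL-4, for example, stands in the first and the last, so its missing peaks at Bhlhe40 and Myc count as lost in one and as gained in the other. The 8 genes were chosen with results of these data known, and their shares are a description.

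**Figure D3:**
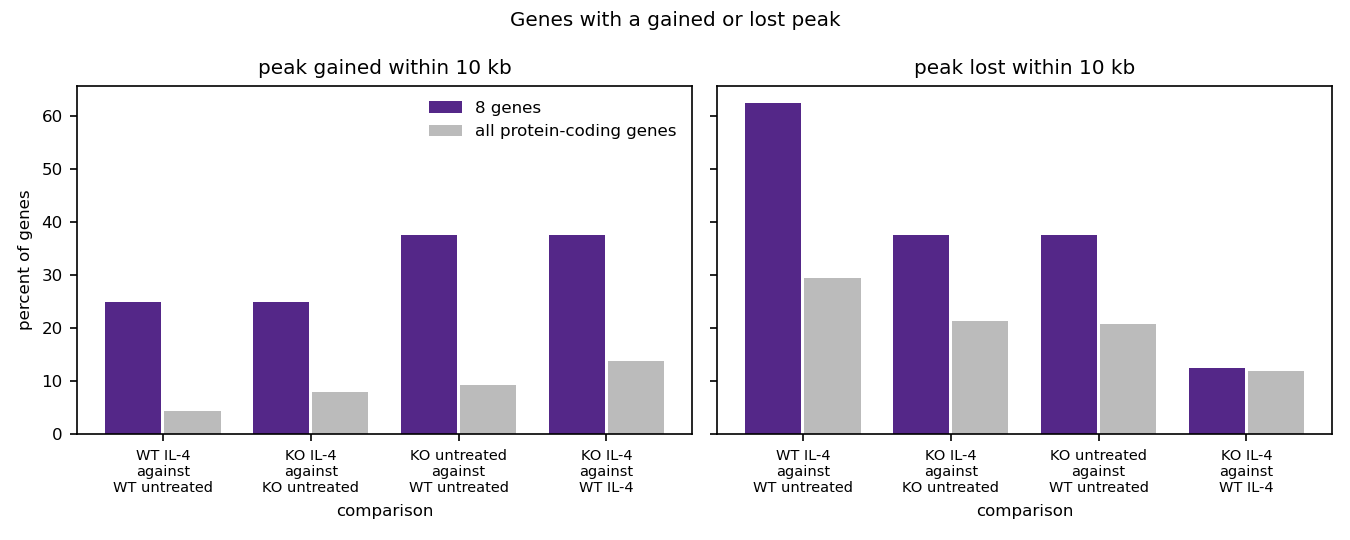
Percent of the 8 genes (purple) and of all 21887 protein-coding genes (grey) with a gained (left) or lost (right) peak within 10 kb in the 4 comparisons. With 8 genes each gene counts for 12.5%. The widest gap is in lost peaks of WT IL-4 against WT untreated, 62.5% against 29.5%, and in lost peaks of KO IL-4 against WT IL-4 the bars are near each other at 12.5% and 12.0%.

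**Figure D4:**
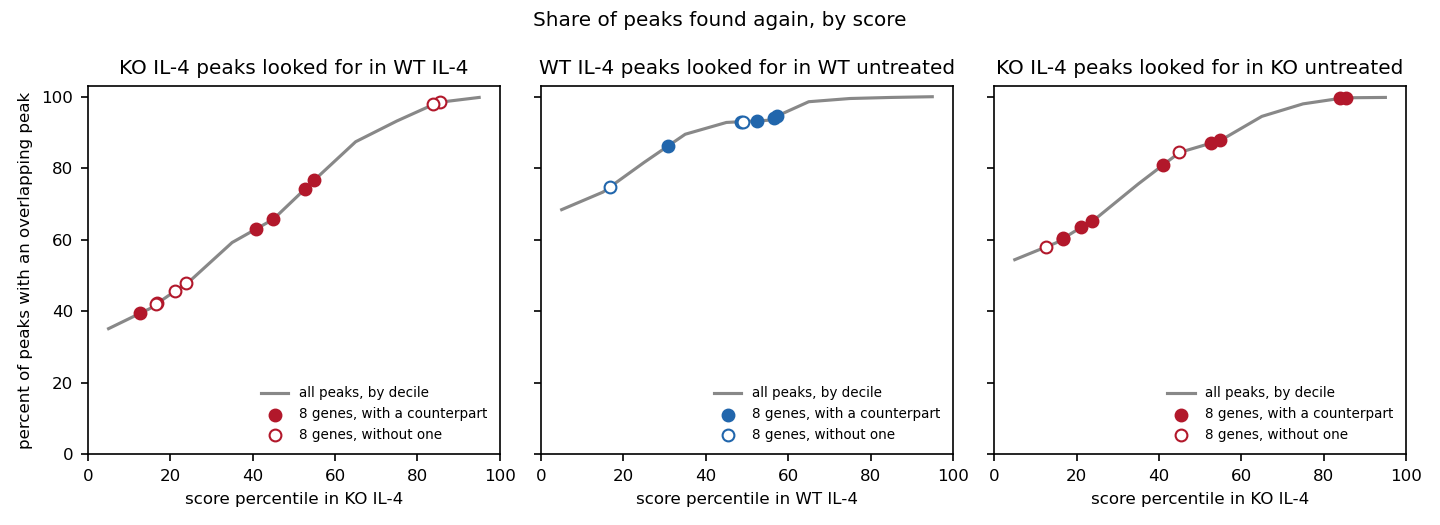
Share of peaks of one list with an overlapping peak in another (y axis, percent) by score percentile in the first list (x axis). The grey line joins the 10 deciles of the whole list, and each peak of the 8 genes is set on that line at its percentile, filled if it has a counterpart and open if it has none, so its height is not a separate measurement. The open points at percentiles 83.9 and 85.5 of KO IL-4 are the peaks of Myc and Bhlhe40.

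Within 100 kb every one of the 8 genes had a peak in every list, as did 74.0% of all genes in KO IL-4, 77.2% in KO untreated, 73.2% in WT IL-4 and 79.2% in WT untreated. The wider window added 27 regions, of which 12 reached another gene's span or edge. Of the 6 added regions found in all 4 lists, 5 did so. The added peaks numbered 11 in KO IL-4, 16 in KO untreated, 13 in WT IL-4 and 23 in WT untreated.

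Around Egr1 the strongest of these was at the edge of Etf1, a translation termination factor gene, 66667 bp away. It scored 272 in KO IL-4, 444 in KO untreated, 184 in WT IL-4 and 488 in WT untreated. The next, at the edge of Hspa9, a mitochondrial chaperone gene, scored 101 in KO IL-4, 153 in KO untreated, 170 in WT IL-4 and 119 in WT untreated. A region at the edge of Kdm3b, a histone demethylase gene, scored 69.6 in KO untreated, 78.7 in WT IL-4 and 100.6 in WT untreated and was missing from KO IL-4. Irf4 had a shared region at the edge of Dusp22, a phosphatase gene 88665 bp below, with 63.6 in KO IL-4, 121 in KO untreated, 97.0 in WT IL-4 and 171 in WT untreated. All 4 thus lay at other genes.

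Around Egr2 the 3 further regions lay in no gene span. The region 56362 bp above the span scored 96.3 in KO IL-4 and 123 in WT untreated and was missing from KO untreated and WT IL-4. The one 50601 bp below scored 65.3 in KO untreated and 92.3 in WT untreated, and neither IL-4 list had it. The third, 86770 bp above, was found in WT IL-4 alone (61.2). None of the 3 was thus found in both IL-4 lists.

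Egr3 had the most added regions. The strongest, 19713 bp below the span and inside Pebp4, scored 135 in KO IL-4, 249 in KO untreated, 105 in WT IL-4 and 222 in WT untreated. The region 10799 bp below scored 54.2 in KO IL-4, 136 in KO untreated, 73.6 in WT IL-4 and 167 in WT untreated. A region at the edge of Ccar2 scored 96.9 in KO untreated, 130 in WT IL-4 and 199 in WT untreated and was missing from KO IL-4. Another, 13468 bp above and outside every gene span, scored 55.2 in KO untreated and 109.5 in WT IL-4. It was missing from KO IL-4 and WT untreated, as was the Egr3 region 2112 bp below the span.

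Of the 27 added regions 14 had no WT IL-4 peak, which is 51.9%, and 51.9% of all merged regions had none either. Of the 27, 4 were found in every list but WT IL-4, 1 at Myc, 1 at Klf4 and 2 at Kdm6b, where 7.24% of all merged regions had that pattern. The Myc region 65958 bp above the span scored 63.2 in KO IL-4, 95.8 in KO untreated and 106 in WT untreated. The Klf4 region 90854 bp above scored 68.4 in KO IL-4, 51.2 in KO untreated and 92.0 in WT untreated, and that 12048 bp below was in WT untreated alone (83.8). Of the 2 Kdm6b regions, 1 lay inside Chd3, a chromatin remodeler gene, with 70.2 in KO IL-4, 126 in KO untreated and 220 in WT untreated. The other overlapped Cntrob and Trappc1, with 78.0 in KO IL-4, 150 in KO untreated and 177 in WT untreated.

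The added Bhlhe40 regions lay outside gene spans. That 51848 bp above scored 63.4 in KO untreated and 113 in WT untreated, that 89032 bp below scored 75.3 in WT IL-4 and 98.1 in WT untreated, and that 73575 bp above was in WT untreated alone (96.9). Bhlhe40 had no KO IL-4 peak within 100 kb other than the one at its span end.

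**Figure D5:**
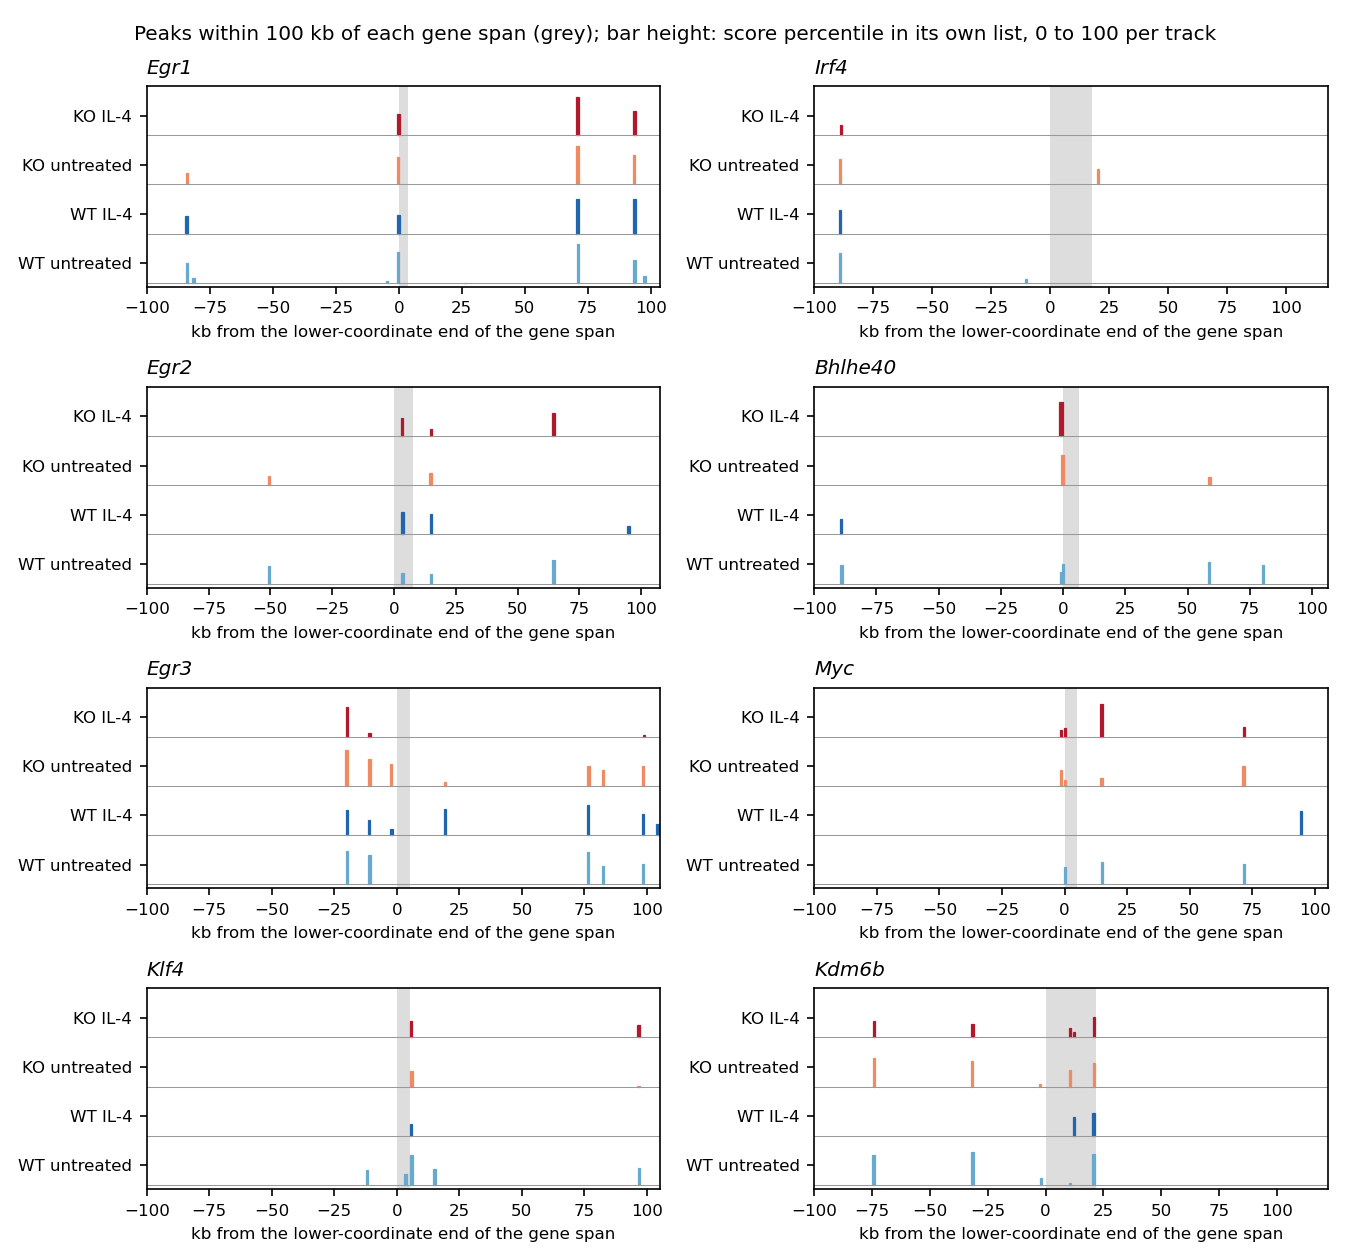
Peaks within 100 kb of each gene in the 4 libraries, drawn as in the map of the 10 kb windows, with the x axis in kb from the lower-coordinate end of the span (grey). Narrow peaks are drawn wider than they are so that they can be seen. The tallest bars near Egr1 lie at the edges of Etf1 and Hspa9, and the single WT IL-4 bar near Myc stands where no other list has a peak.

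The genes with the most similar pattern were found from the percentile of the highest peak within 10 kb in each of the 4 lists, with 0 for no peak, leaving out genes that share a peak. The nearest to Egr1 was Abr, at a distance of 2.91 percentile points over the 4 lists. For Kdm6b they were Svbp and Tmem269, both at 2.53 and with the same values as each other. The nearest were Ftsj3 to Egr2 (10.0), Tbca to Egr3 (5.98), Cpt2 to Klf4 (7.13), Lrrc49 to Bhlhe40 (8.69) and Manba to Myc (9.97). For Irf4, whose pattern is a single peak, Ms4a4c was nearest (0.0583). The second nearest were Gm45975 to Egr1, Zfp459 to Egr2, Hrob to Egr3, Otud3 to Klf4, Gm21149 to Irf4, Letm2 to Bhlhe40 and Cyp2r1 to Myc. Manba and Cyp2r1 also had no WT IL-4 peak within 10 kb, whereas Lrrc49 and Letm2 had one at percentiles 6.9 and 10.0 of that list.

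Among 31 related genes of IL-4 signalling and of the partners and relatives of these factors, 18 had a peak within 10 kb in KO IL-4, 23 in KO untreated, 21 in WT IL-4 and 29 in WT untreated. In WT IL-4 against WT untreated 3 of the 31 had a gained peak and 16 a lost one, against 4.41% and 29.5% of all genes. The gained ones were Jak1, a kinase of the IL-4 receptor (61.7), Rxra, a nuclear receptor (57.0), and Bhlhe41, the paralogue of Bhlhe40 (79.2). In KO IL-4 against KO untreated 3 had a gained peak and 13 a lost one, against 7.95% and 21.4% of all genes. The gained ones lay at Pparg, a nuclear receptor of alternative activation (56.8), Irf5 (91.5) and Irf2, with 3 peaks of 54.0 to 99.8. In KO untreated against WT untreated 5 had a gained peak (Jak1, Spi1, Batf, Irf2 and Bhlhe41) and 15 a lost one, against 9.27% and 20.7% of all genes. In KO IL-4 against WT IL-4 4 had a gained peak (Stat6, Pparg, Irf2 and Klf6) and 9 a lost one, against 13.9% and 12.0%. The genes of these last comparisons were named after their values were seen. Counted by peak in the same order, 23 of 57, 16 of 41, 20 of 57 and 9 of 35 were lost. The whole-list shares were 47.7%, 37.7%, 32.1% and 26.1%. Gained were 3 of 35, 5 of 32, 6 of 41 and 5 of 32, against 10.3%, 18.1%, 15.4% and 29.5%. Egr4 and Mycl, relatives of the EGR and MYC genes, had no peak in any list, and 17 of the 31 had one in all 4. No share over all genes is given for these counts.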

How the data were processed

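ATAC-seq peak lists of 4 libraries, 1 per group, were used. Per the submitters' processing notes the tools were Bowtie2 2.2.5, MACS 1.4.2 and HOMER with the genome mm10, and no roles or parameters are stated. The authors deposited a score for every peak, from 50.0 upward. It has the form of MACS 1.4 values, but no header states its unit, and it was used only within a list. Peaks were called per library. The sequencing depth is unknown. Peak starts were converted to 1-based positions. Genes were the protein-coding spans of RefSeq GRCm38.p6, which carry no strand or exons, so exon and intron were not told apart. The percentile is the share of a list's scores at or below a peak's score.

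All 8 genes were named by rule, with every peak within 10 kb, the 3 highest-scoring regions per gene out to 100 kb, the 2 most similar genes and the related genes with a peak gained with IL-4 in a genotype or with no peak in any list. The fourth Egr3 region was added after its values were seen. Members and lists were chosen with earlier results of these data known. The alternatives were a reciprocal overlap of 50%, no peak within 500 bp, a score of 100 or more, and equal list lengths, with the top 9930 peaks by score. Overlap counting was tested on simulated data: of 17339 WT untreated peaks, 3000 were removed and 700 added elsewhere, and it found all of both. Python 3.11.15, NumPy 2.4.6, pandas 2.3.3 and Matplotlib 3.10.9 were used.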

Additional observations from a re-analysis of the deposited data

Results flagged for a closer look

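The 100 kb windows of the 8 genes held 44 regions. In 3 of them a peak came with IL-4 in one genotype and went with it in the other. The difference between the genotypes was not tested, because each group held 1 library. The Egr3 region 2112 bp below the span was lost in KO, with a score of 104.5 in KO untreated, and gained in WT, with 58.41 in WT IL-4. The Egr3 region 13468 bp above the span was likewise lost in KO (55.2 in KO untreated) and gained in WT (109.54 in WT IL-4). Its KO untreated peak was at percentile 9.7, in a decile of which 24.1% overlapped a KO IL-4 peak, and at equal list lengths it fell below the lowest score kept, 67.78, so that the loss in KO ended. This region was named after its values were seen. The Egr2 region 56362 bp above the span was gained in KO (96.3 in KO IL-4) and lost in WT (123 in WT untreated). Of KO IL-4 peaks in the same score decile, 87.8% overlapped a KO untreated peak. Of WT untreated peaks in the decile of its peak there, 68.2% overlapped a WT IL-4 peak. At equal list lengths no absent peak could appear, and the peaks of the first and the last of these regions scored above the lowest scores kept. Their patterns therefore could not change under that setting. The pattern lost in KO and gained in WT was found in 2 of the 44 regions and in 1.01% of all merged regions. The reverse pattern was found in 1 of the 44 and in 3.04% of all.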

How the results depend on the processing

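The counts of peaks within 10 kb of the 8 genes depended on the score limit and on list length. With no peak allowed within 500 bp, all 8 counts of gained or lost peaks stayed within 1.5 times the values reported. With a reciprocal overlap of 50%, 7 of the 8 did, and peaks lost in KO IL-4 against WT IL-4 numbered 2 in place of 1. With a score of 100 or more, the lists held 2 peaks at the 8 genes in KO IL-4, 4 in KO untreated, 0 in WT IL-4 and 5 in WT untreated. The median scores of the whole lists were 86.09, 94.28, 85.46 and 101.1 in the same order of libraries, so this limit cut the lists unequally. Peaks gained then numbered 0 in WT IL-4 against WT untreated, 1 in KO IL-4 against KO untreated, 1 in KO untreated against WT untreated and 2 in KO IL-4 against WT IL-4, and peaks lost 5, 3, 2 and 0 in that order. At equal list lengths of 9930, WT untreated held 6 peaks. Peaks gained were then 4, 4, 5 and 5 and peaks lost 3, 2, 2 and 1 in the same order of comparisons. In the comparisons of IL-4 with untreated libraries, gains could only rise or stay and losses only fall or stay. The lowest score kept was then 89.57 in WT untreated and 67.78 in KO untreated. Both Egr2 peaks of WT untreated fell out, so that Egr2 then counts as gained in WT. The WT IL-4 list itself has 9930 peaks, so this setting removed none of them. The Kdm6b peak gained in WT and the WT IL-4 absences at Bhlhe40 and Myc could therefore not change under it. No paired analysis was possible because each group held 1 library. Read depth is unknown, and it limits every statement that a peak is missing.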
